A study of Mus musculus with 6 samples.

Results

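The mitochondrially encoded genes were taken as all rows of the expression tables whose gene name starts with mt-. The rule found 37 genes among 43074 gene names in each of 6 tables. They comprise 13 messenger RNA genes, 2 ribosomal RNA genes and 22 transfer RNA genes. The tables came from soleus, a postural hindlimb muscle of the mouse, with 3 libraries labelled WT and 3 labelled StarD7 mKO. The latter are muscle knockouts of Stard7, whose protein carries phosphatidylcholine to mitochondria. The series gave 3 mice per group, but the labels tied no library to an animal, so p-values measure the spread between these samples, which may be technical. The driver of the knockout, the strain, the age and the sex are not given in the sources used here. Libraries were made from poly(A)-selected RNA with a directional kit, and each value is in TPM, a unit that corrects reads for gene length and gives all libraries the same sum.

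Mitochondria keep a small circular genome that is transcribed from promoters in its control region into long RNAs covering many genes in a row. Transfer RNAs lie between most of the other genes, and their excision frees the messenger and ribosomal RNAs, most of which then receive a short poly(A) tail. The messengers encode subunits of complexes I, III, IV and V of oxidative phosphorylation, while all other subunits come from nuclear genes. The ribosomal RNAs build the mitochondrial ribosome. In muscle, slow and oxidative fibres are rich in mitochondria, and mitochondrial transcripts make up much of the messenger RNA.

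The libraries held between 42928774 and 51287999 reads on the genes whose reads could be recovered from TPM and gene length. The targeted gene, Stard7, had 87.5, 95.4 and 95.0 TPM in the WT libraries. In the mKO libraries it had 21.8, 21.3 and 34.6 TPM, lower in each (log2 difference −1.83, SE 0.16, limma adjusted p = 0.00585). All 9 slow and 11 fast fibre markers were above 0 in these libraries. Of the 3 cardiac muscle markers, 1 (Nppa) was listed at 0 in all libraries. The 3 summed to between 6.65 and 7.78 TPM in WT and between 7.36 and 10.3 TPM in mKO. Of the fast fibre markers 4 passed as lower in mKO, where 0.520% of all tested genes were called. Limma-voom on reads called 6 of them, and 3 with median-of-ratios library sizes. Their summed level ran from 46000 to 53941 TPM in WT and from 28552 to 37519 TPM in mKO. Of the slow fibre markers 0 passed (limma-trend), with 2 at an unadjusted p under 0.05 and 0 called by limma-voom. The log2 difference was above 0 for 8 of the 9 slow markers, with a median of 0.25, and for 0 of the 11 fast ones. Among all tested genes it was above 0 for 44.9%. The slow marker sums overlapped, at 17401 to 22768 TPM in WT and 18806 to 26989 TPM in mKO. The summed level of 5 endothelial markers, none called, ran from 215 to 222 TPM in WT and from 206 to 210 TPM in mKO. Of these 5 markers 2 had a log2 difference above 0. The sums of the other marker lists overlapped between groups, namely adipocytes, fibroblasts, macrophages, red blood cells, nerve, satellite cells, cardiac muscle and handling stress.

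The 3′ ends of the messengers show how closely the genes are packed. Sequences are GENCODE M21 transcripts, an annotation of GRCm38, printed 5′ to 3′ in DNA letters. Of the 13 messenger genes, 8 end in TAA and 2 in TAG, and 3 end in a bare T, a stop codon that the poly(A) tail completes. The 2 genes that end in TAG are mt-Nd1 and mt-Nd2, and in both the last 2 bases are also the first 2 bases of the transfer RNA gene that follows. They are shown because their shares of mitochondrial RNA differed most clearly between the groups, beside mt-Co1 as a TAA example and the 3 genes with a bare T. Each line gives the last 30 bases of the gene, with the stop codon, or what the gene holds of it, in capitals.
mt-Nd1: tttacagcgggagtaccaccatacataTAG
mt-Nd2: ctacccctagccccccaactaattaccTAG
mt-Co1: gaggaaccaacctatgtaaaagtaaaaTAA
mt-Co3: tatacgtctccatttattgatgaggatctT
mt-Nd4: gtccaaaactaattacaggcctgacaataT
mt-Cytb: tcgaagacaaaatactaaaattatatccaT

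The transfer RNA genes on either side of mt-Nd1 and mt-Nd2 are shown because they include the 3 transfer RNA genes with a read in every library. In map order, mt-Tl1 (leucine) is followed directly by mt-Nd1 and then mt-Ti (isoleucine), and mt-Tm (methionine) directly by mt-Nd2 and then mt-Tw (tryptophan). Capitals mark bases that the annotation also gives to a neighbouring gene. At the start of mt-Ti and mt-Tw these are the 2 bases shared with mt-Nd1 and mt-Nd2, and at the end of mt-Ti the 3 bases shared with mt-Tq on the opposite strand.
mt-Tl1: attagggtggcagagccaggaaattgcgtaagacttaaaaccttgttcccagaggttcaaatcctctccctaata
mt-Ti: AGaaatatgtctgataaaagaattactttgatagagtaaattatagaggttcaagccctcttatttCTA
mt-Tm: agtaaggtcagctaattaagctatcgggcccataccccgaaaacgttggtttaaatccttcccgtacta
mt-Tw: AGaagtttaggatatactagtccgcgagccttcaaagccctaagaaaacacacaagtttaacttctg

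Mitochondrially encoded RNA made up at least 42.1% of the TPM in every library, and its share was higher in every mKO library than in any WT library. It was 43.5%, 42.1% and 45.1% of all TPM in WT replicates 1, 2 and 3, and 48.9%, 46.8% and 48.2% in mKO replicates 1, 2 and 3. The difference of the means was 4.44 percentage points. As a share of recovered reads, which are not divided by gene length, the mean was 20.04% ± 1.04 for WT and 22.8% ± 0.799 for mKO (SD over 3 libraries each). Because TPM has a fixed sum, the nuclear genes together took 56.4% in WT and 52.0% in mKO, a ratio of 0.921, or −0.12 on the log2 scale. In bulk tissue, fewer cells of a type and less RNA per cell cannot be told apart. The fast fibre marker sum given above was lower in mKO, at a ratio of 0.638. The endothelial sum had a ratio of 0.949, against 0.921 for the nuclear genes together, a sum in which the highest genes count most. By gene, the median log2 difference was −0.10 for the endothelial markers and −0.01 for the tested nuclear genes. The slow fibre sums overlapped, with a ratio of means of 1.17. The part of these markers in the difference of the mitochondrial share was not tested.

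**Figure D1:**
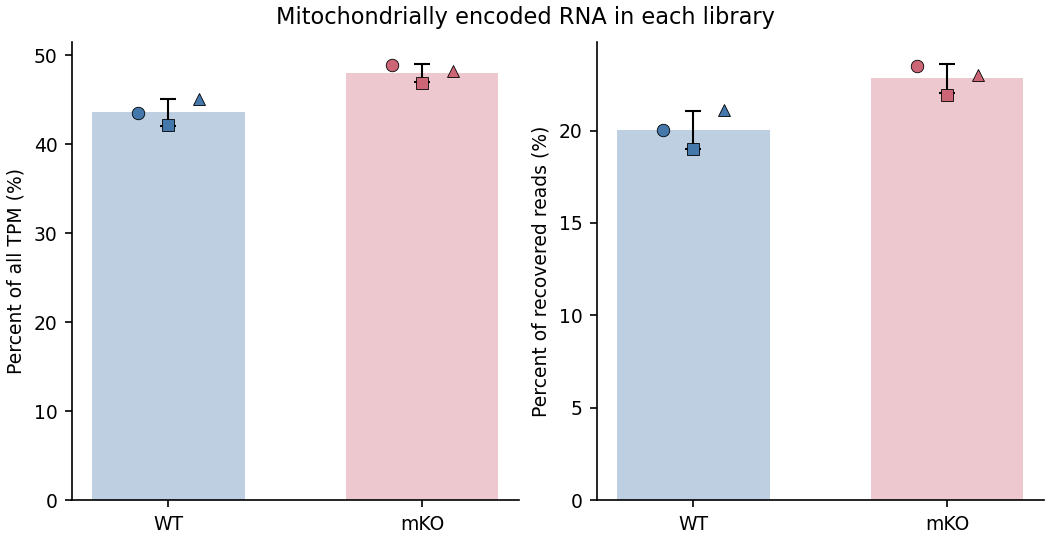
Summed level of the 37 mitochondrially encoded genes as percent of all TPM (left) and of recovered reads (right). Bars are group means, error bars are SDs (n = 3 each), and circles, squares and triangles are replicates 1, 2 and 3. Each mKO library lies above each WT library in both panels.

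Almost all of this RNA was messenger. The 13 messenger genes took 98.3% ± 0.0487 of mitochondrial TPM in WT and 98.3% ± 0.125 in mKO. The 2 ribosomal RNA genes took 1.70% ± 0.0485 and 1.67% ± 0.124, and the transfer RNA genes 0.00521% ± 0.000311 and 0.00424% ± 0.000417. Mitochondrial ribosomal RNA is abundant in cells but carries short tails or none, and poly(A) selection was used, so these shares describe the libraries and not the cell's RNA.

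Complex I, which passes electrons from NADH to ubiquinone, has 7 mitochondrially encoded subunits, and 2 of them showed the largest log2 differences between groups among the messengers, although in TPM the difference was largest for mt-Co2. The level of mt-Nd1, a membrane subunit at the foot of the ubiquinone site, was 32017, 30866 and 33194 TPM in WT and 39591, 37221 and 38434 TPM in mKO. The level of mt-Nd2, a proton-pumping subunit, was 29795, 28269 and 31360 TPM in WT and 37839, 36180 and 36841 TPM in mKO. For both genes the groups were far apart relative to their spread, with all mKO libraries above all WT libraries. On the log2(TPM + 1) scale the differences, mKO minus WT, were 0.26 for mt-Nd1 (SE 0.07, limma adjusted p = 0.18) and 0.31 for mt-Nd2 (SE 0.07, limma adjusted p = 0.131). Neither passed the threshold of 0.05 over all 12301 genes tested. The difference for each gene was above 0 in all 14 other settings run, with adjusted p between 0.0454 and 0.821 for mt-Nd1 and between 0.0395 and 0.815 for mt-Nd2. Both passed in only 1 of these, limma-voom on recovered reads, at 0.31 (limma adjusted p = 0.0454) and 0.36 (limma adjusted p = 0.0395). Its library sizes were sums of the recovered reads, which leave out genes without recovered reads. The median log2 difference over all genes was 0.04 in that setting, against −0.01 in the main test. Of all 11206 genes in it, 0.821% were called and 0.312% were called higher. With median-of-ratios library sizes, a choice made after seeing the data, limma-voom gave 0.28 and 0.33 with adjusted p = 0.204 and 0.147. It called 0 members, against 0.535% of all genes in either direction and 0.161% higher.

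The other complex I messengers stood closer together. For mt-Nd3, a small membrane subunit, the values were 10415, 10014 and 10157 TPM in WT and 10796, 10530 and 10510 TPM in mKO, so the groups did not overlap but differed by only 0.06 on the log2 scale. The proton-pumping subunit gene mt-Nd4 was at 32583, 31847 and 35892 TPM in WT and 36384, 34292 and 36408 TPM in mKO. Its neighbour mt-Nd4l, which shares 7 bases and a single messenger with it, was at 12275, 13558 and 14024 TPM in WT and 14830, 13795 and 14200 TPM in mKO. Both of these overlapped between groups. The TPM of mt-Nd4 was 2.52 ± 0.156 times that of mt-Nd4l in WT and 2.50 ± 0.0568 times in mKO (exact two-sided permutation p = 1).

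At the far end of the map lie mt-Nd5, the third proton-pumping subunit, and mt-Nd6, the only messenger gene read in the opposite direction. The level of mt-Nd5 was 17446, 18300 and 20182 TPM in WT and 19624, 18772 and 19230 TPM in mKO, with overlapping groups. The level of mt-Nd6 was 529, 678 and 492 TPM in WT and 560, 503 and 493 TPM in mKO. It was the lowest messenger in every library, and in WT mt-Co1 stood 146 times above it per length. Poly(A) selection was used, so this gap describes the libraries and not the cell's RNA. The high value in WT replicate 2 sets the WT mean of mt-Nd6, at 566 ± 98.5 TPM against 519 ± 36.1 TPM in mKO. The log2 difference of −0.11 (SE 0.12, limma adjusted p = 0.795) crossed to 0.02 without that library. The 2 genes overlap by 14 bases on opposite strands, and whether counting used strand is not stated.

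Complex III, which reduces cytochrome c, has cytochrome b as its only mitochondrially encoded subunit. Its gene mt-Cytb was at 38695, 37712 and 40609 TPM in WT and 41733, 40131 and 41579 TPM in mKO, and the groups overlapped. The log2 difference was 0.08 (SE 0.06, limma adjusted p = 0.74).

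Complex IV, cytochrome c oxidase, reduces oxygen at a core of 3 mitochondrially encoded subunits, and mt-Co1 and mt-Co2 held the highest levels of all members. The catalytic subunit gene mt-Co1 was at 82328, 78326 and 87153 TPM in WT and 90452, 86650 and 90414 TPM in mKO. It was the most abundant RNA of every library, and mKO replicate 2 lay below WT replicate 3. The gene of the subunit that takes electrons from cytochrome c, mt-Co2, was at 55007, 51992 and 54566 TPM in WT and 64280, 59481 and 62430 TPM in mKO. All mKO libraries stood above WT, and the log2 difference of 0.20 (SE 0.07, limma adjusted p = 0.334) did not pass. The third core subunit gene, mt-Co3, was at 51971, 48320 and 51939 TPM in WT and 57195, 55770 and 56338 TPM in mKO, also without overlap, at a log2 difference of 0.15 (SE 0.07, limma adjusted p = 0.47).

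Complex V, the ATP synthase, takes 2 subunits from this genome, and their genes overlap by 43 bases within a single messenger. The gene mt-Atp6, which encodes the subunit that lines the proton path, was at 53242, 50851 and 53182 TPM in WT and 56204, 55144 and 56076 TPM in mKO, with mKO above WT in all libraries. The gene of its small partner, mt-Atp8, was at 11241, 12984 and 10347 TPM in WT and 11943, 11589 and 11312 TPM in mKO, inside the WT range. Although the genes share a messenger, the TPM of mt-Atp6 was 4.60 ± 0.623 times that of mt-Atp8 in WT and 4.81 ± 0.133 times in mKO (exact two-sided permutation p = 0.8). The assignment of reads in the shared bases is not stated.

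The ribosomal RNA genes were far below most messengers in these poly(A) libraries. The small-subunit RNA gene mt-Rnr1 was at 2882, 3036 and 3087 TPM in WT and 2843, 3267 and 3183 TPM in mKO, with mKO replicate 1 the lowest of all libraries. The large-subunit RNA gene mt-Rnr2 was at 4271, 4298 and 4591 TPM in WT and 4695, 5109 and 4990 TPM in mKO, with no overlap. Its log2 difference was 0.17 (SE 0.06, limma adjusted p = 0.344). Within each library, the ratio of mt-Rnr2 to mt-Rnr1 was 1.48, 1.42 and 1.49 in WT and 1.65, 1.56 and 1.57 in mKO. This ratio was higher in all mKO libraries (exact two-sided permutation p = 0.1, the smallest that 3 against 3 can give).

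**Figure D2:**
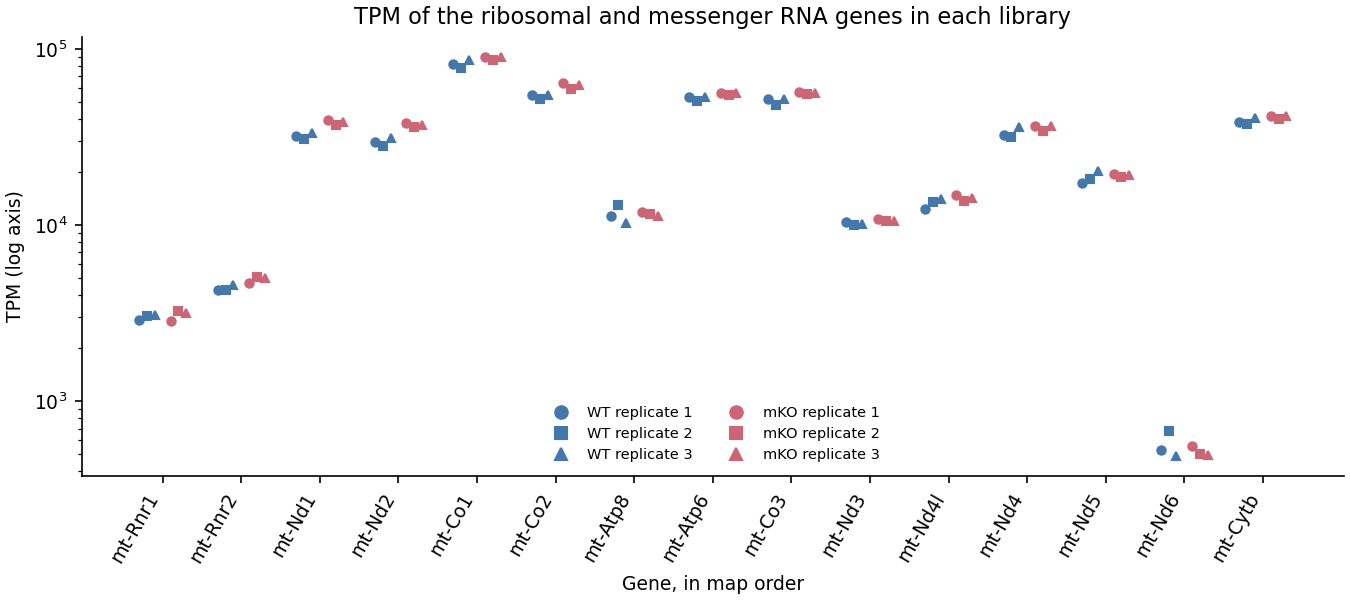
TPM on a log axis of the 2 ribosomal and 13 messenger RNA genes, in map order, in each library (WT blue, mKO red, markers as in the legend). Levels span from 492 TPM for mt-Nd6 to 90452 TPM for mt-Co1, while mKO and WT points of a gene lie close together.

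Across the 15 messenger and ribosomal RNA genes, 14 had a higher mean in mKO, and 0 passed the limma-trend test, which all 15 entered. Limma-voom on reads called 2 of them, mt-Nd1 and mt-Nd2, against 0.821% of all genes in that test. Of all genes in the limma-trend test, 0.520% were called in either direction and 0.0976% were called higher. A log2 difference above 0 was found for 44.9% of all genes in it, and for 78.4% when scaled to nuclear genes. At an unadjusted p under 0.05, 4 of the 15 genes stood out, against 10.7% of all tested genes. In 7 of the 15, namely mt-Rnr2, mt-Nd1, mt-Nd2, mt-Co2, mt-Atp6, mt-Co3 and mt-Nd3, all mKO libraries lay above all WT libraries, and in 0 below. Among all tested genes 5.67% lay above and 10.3% below. These genes share promoters and a fixed TPM sum, so they are not independent of each other. Of the 37 members 18 passed the filter on low values, 3 of them transfer RNA genes, and for those 18 the median log2 difference was 0.09, against −0.01 over all genes tested. Scaled so that nuclear genes sum to a fixed value, these medians were 0.21 and 0.09. Without WT replicate 3 the median of the members was 0.13, and without WT replicate 2 it was 0.07.

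Dividing each gene by the mitochondrial total of its library removes what is common to all members, and then mt-Nd1 and mt-Nd2 stood apart. The share of mt-Nd1 in mitochondrial TPM was 7.365%, 7.33% and 7.36% in WT and 8.10%, 7.95% and 7.97% in mKO. That of mt-Nd2 was 6.85%, 6.71% and 6.96% in WT and 7.74%, 7.72% and 7.64% in mKO. The gaps of 0.65 and 0.858 percentage points, or 8.84% and 12.5% of the WT share, exceeded the SDs, which lay between 0.0195 and 0.122 points. Each had an exact two-sided permutation p of 0.1, the smallest this design allows. Leaving out any 1 library kept the gaps between 0.603 and 0.678 points for mt-Nd1 and between 0.794 and 0.916 points for mt-Nd2. The pair took 14.2% ± 0.14 of mitochondrial TPM in WT and 15.7% ± 0.12 in mKO (SD over 3 libraries). Within the pair, the ratio of mt-Nd2 to mt-Nd1 was 0.931, 0.916 and 0.945 in WT and 0.956, 0.972 and 0.959 in mKO, higher in all mKO libraries (exact permutation p = 0.1). Set against mt-Rnr2 alone, mt-Nd1 did not stand apart. That ratio was 7.50, 7.18 and 7.23 in WT and 8.43, 7.29 and 7.70 in mKO, with overlap (exact permutation p = 0.2). The ratio of mt-Nd5 to mt-Nd6 overlapped too (exact permutation p = 0.5).

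A smaller gain in share was seen for mt-Co2, and some genes had a lower share. The share of mt-Co2 was 12.4% ± 0.275 in WT and 12.9% ± 0.224 in mKO, with no overlap (exact permutation p = 0.1). Lower without overlap were mt-Cytb, at 8.96% ± 0.0536 and 8.57% ± 0.0422, mt-Atp6, at 12.04% ± 0.227 and 11.6% ± 0.139, and mt-Nd3, at 2.34% ± 0.0778 and 2.21% ± 0.0349. For mt-Nd5, at 4.28% ± 0.239 in WT and 4.002% ± 0.0143 in mKO, the groups were barely apart, with WT replicate 1 at 4.0133% and mKO replicate 1 at 4.0131%. Of the transfer RNA genes, mt-Tl1 had a lower and mt-Tm a higher share in all mKO libraries, both on few reads. Over the libraries of a group, mt-Tl1 had 56 reads in WT and 40 in mKO, and mt-Tm 5 and 17. The gene mt-Tm passed the filter on low values through the mKO libraries, where it was higher, so its p is no support for a difference. Shares have a fixed sum, so a gain of any gene lowers the others, and the permutation p of each of these was 0.1 (exact, two-sided). The shares of mt-Rnr1, mt-Rnr2, mt-Co1, mt-Atp8, mt-Co3, mt-Nd4l, mt-Nd4 and mt-Nd6 overlapped between groups.

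**Figure D3:**
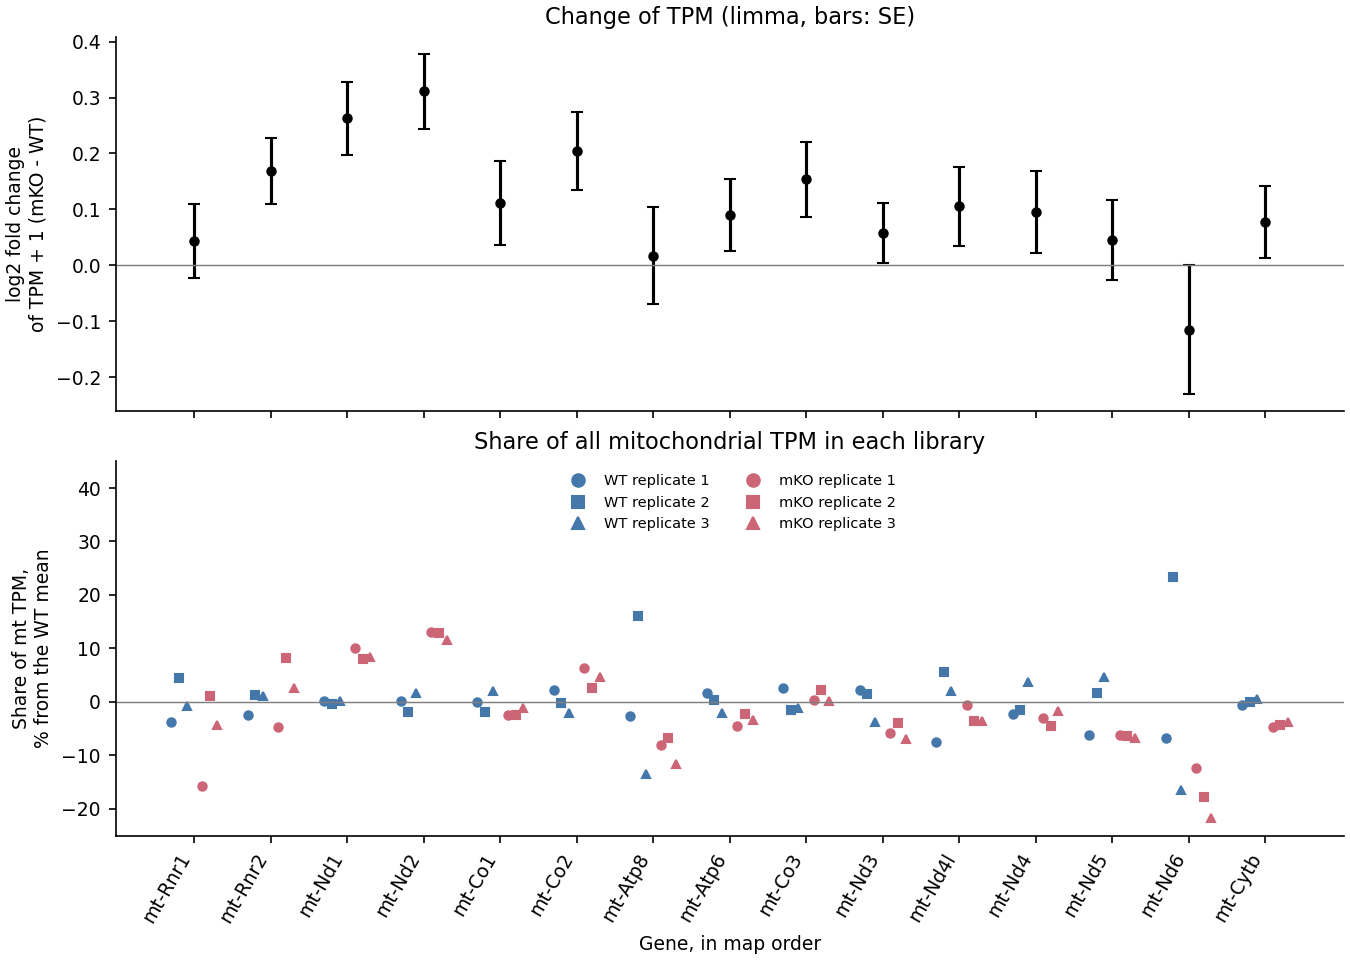
Top, log2 difference of TPM + 1 (mKO minus WT) from limma with its SE, for 15 genes in map order. Bottom, each library's share of mitochondrial TPM as percent deviation from the WT mean share. The mKO shares of mt-Nd1, mt-Nd2, mt-Co2 and mt-Co3 lie above it in all 3 libraries. Those of mt-Co1, mt-Atp8, mt-Atp6, mt-Nd3, mt-Nd4l, mt-Nd4, mt-Nd5, mt-Nd6 and mt-Cytb lie below it in all 3 libraries. Those of mt-Rnr1 and mt-Rnr2 lie on both sides.

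Read from mt-Tf, the order of the messenger genes starts with mt-Nd1, mt-Nd2, mt-Co1 and mt-Co2 and ends with mt-Nd5, mt-Nd6 and mt-Cytb. Across the 15 genes, the log2 ratio of shares had a Spearman rho of −0.52 with map order, 0.49 with the WT level, 0.40 with GC content and 0.29 with gene length. These are descriptions over genes that share libraries and precursor RNAs. Of the other genes with a higher mean share, mt-Co3 lies mid-map, at 11.65% in WT and 11.76% in mKO, with overlap. The third messenger on the map, mt-Co1, had shares of 18.9%, 18.6% and 19.3% in WT and 18.5%, 18.5% and 18.7% in mKO.

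Copies of mitochondrial DNA in the nuclear genome can share reads with these genes. A search of all other GENCODE M21 transcripts found 17 genes with a stretch at least 90% identical to a member, and 0 of them is listed in the expression tables. For 7 members the identity reached 99%. The copies of mt-Atp6, mt-Co2, mt-Co3 and mt-Nd4l were identical over nearly the whole gene, that of mt-Nd4 was identical over 876 of 1378 bases, and that of mt-Nd3 was 99.7% identical. The copy of mt-Co1 at 99.8% covered 483 bases. For mt-Nd2 the closest was 96.7% identical over 510 bases, and for mt-Nd1, mt-Atp8, mt-Rnr1 and mt-Rnr2 none was found. The treatment of reads that fit both places is not stated, so the order of levels between genes is less certain than the comparison of a gene between libraries.

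Transfer RNAs carry no long poly(A) tail, and their genes held few reads in these libraries. Of 59898306 mitochondrial reads over the 6 libraries, 197 were assigned to transfer RNA genes. A read was seen for 16 of the 22 genes, and 3 of these, mt-Tl1, mt-Ti and mt-Tm, were above 0 in every library. The 6 genes at 0 reads throughout were mt-Tf, mt-Tv, mt-Td, mt-Tk, mt-Tl2 and mt-Tt. A count of 0 allows up to 3 reads, or between 1.85 and 2.14 TPM for a gene of 70 bases, a limit for counting error only.

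Of the genes with reads, mt-Tl1, between mt-Rnr2 and mt-Nd1, had 17, 17 and 22 reads in WT and 11, 15 and 14 in mKO. The mKO libraries were all lower, at 11.4 ± 1.88 TPM in WT against 8.56 ± 1.21 TPM in mKO (log2 difference −0.37, SE 0.13, limma adjusted p = 0.362). For mt-Tm, just before mt-Nd2, there were 1, 1 and 3 reads in WT and 7, 4 and 6 in mKO. It was thus higher in all mKO libraries, on few reads. The mKO libraries alone met the filter of 1 TPM in 3 libraries, and of WT only replicate 3 also reached 1 TPM. The gene thus entered the test through the group where it was higher, and its p is no support for a difference. Its log2 difference of 1.27 (SE 0.27, limma adjusted p = 0.116) depends on the pseudocount at such levels. For mt-Ti, just after mt-Nd1, there were 6, 9 and 2 reads in WT and 2, 4 and 4 in mKO, with overlap (log2 difference −0.41, SE 0.38, limma adjusted p = 0.779). This value was −0.85 without WT replicate 3, −0.03 without WT replicate 2 and −0.19 without mKO replicate 1. For mt-Tw, just after mt-Nd2, there were 0 reads in each WT library and 1, 2 and 1 in mKO, all within the limit that a count of 0 allows. No other transfer RNA gene had more than 5 reads in a library, a value reached by mt-Ts1 in WT replicate 1.

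**Figure D4:**
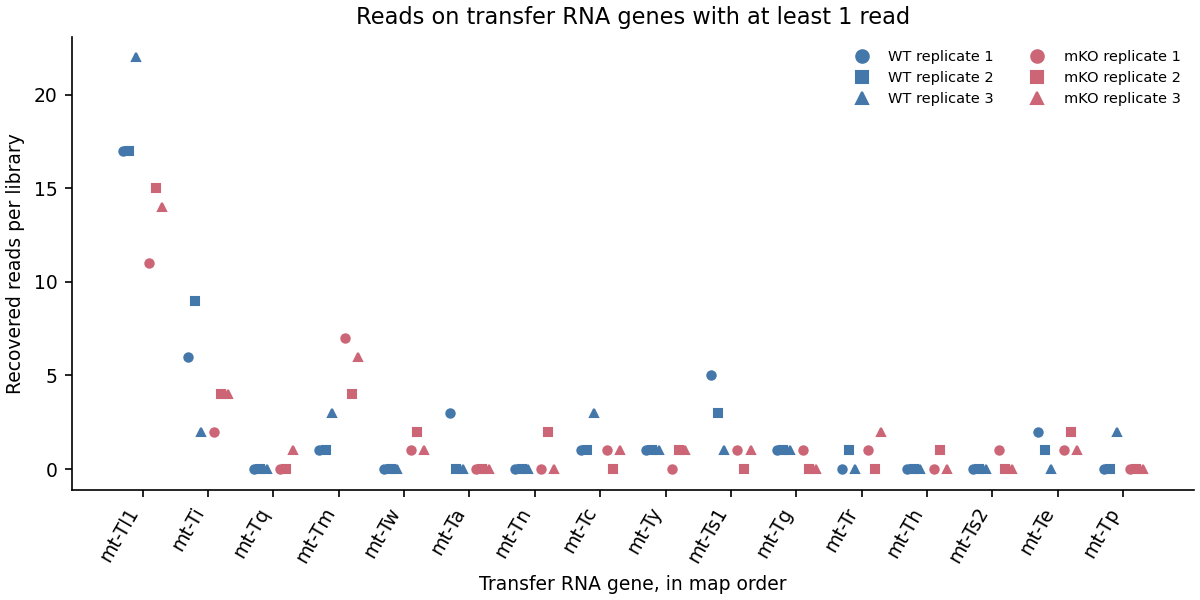
Recovered reads in each library on the 16 transfer RNA genes with at least 1 read, in map order (WT blue, mKO red). The gene mt-Tl1 has between 11 and 22 reads, with all mKO libraries below WT, and mt-Tm has 1 to 3 reads in WT and 4 to 7 in mKO.

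Set against the nuclear subunit genes of the same complex, the mitochondrially encoded genes were higher in all mKO libraries for each of the 4 complexes. For complex I, the summed TPM of the 7 mitochondrial genes was 13.9, 13.2 and 14.6 times that of 38 nuclear genes in WT and 17.5, 16.7 and 17.3 times in mKO. For complex IV it was 18.3, 16.3 and 18.7 times that of 15 nuclear genes in WT and 21.2, 20.2 and 21.98 times in mKO. The ratio for complex III was 8.17 ± 0.391 in WT and 9.40 ± 0.184 in mKO, and for complex V 7.15 ± 0.259 and 8.27 ± 0.00194. From WT to mKO the ratio was thus 1.24 times as high for complex I, 1.19 for complex IV, 1.16 for complex V and 1.15 for complex III. All mitochondrial and all nuclear genes took 43.6% and 56.4% of TPM in WT and 48.0% and 52.0% in mKO. From WT to mKO the mitochondrial total was 1.10 times as high and the nuclear total 0.921 times. The ratio of these totals was thus higher in mKO too, by an amount close to that of the complexes. The rises of the complexes are not separate from that difference and not particular to them.

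For complexes I, IV and V both sums parted between the groups, while for complex III the mitochondrial side, mt-Cytb alone, overlapped and only the nuclear sum parted. The nuclear genes of complex I summed to 9938 ± 191 TPM in WT against 9073 ± 57.9 TPM in mKO, and their mitochondrial partners to 137964 ± 6399 and 155678 ± 4183 TPM. The nuclear sums of complexes III, IV and V were likewise lower in every mKO library, with ratios of 0.916, 0.931 and 0.911. The nuclear genes as a whole had a ratio of 0.921 under the fixed sum, a ratio of sums in which the highest genes count most. By gene, the median log2 difference of the tested nuclear genes was −0.01. It was −0.12 for the nuclear genes of complexes I, IV and V and −0.13 for those of complex III. By limma-trend 0 nuclear subunit genes were called. At an unadjusted p under 0.05, which 10.7% of all tested genes had, there were 20 of 37 tested genes for complex I and 6 of 9 for complex III. There were 6 of 15 for complex IV and 10 of 18 for complex V. The log2 difference was above 0 for 1 gene of complex V and for 0 of the others, against 44.9% of all tested genes. Limma-voom with either library size called 0 of the 35, 9, 15 and 15 genes that it tested for complexes I, III, IV and V.

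**Figure D5:**
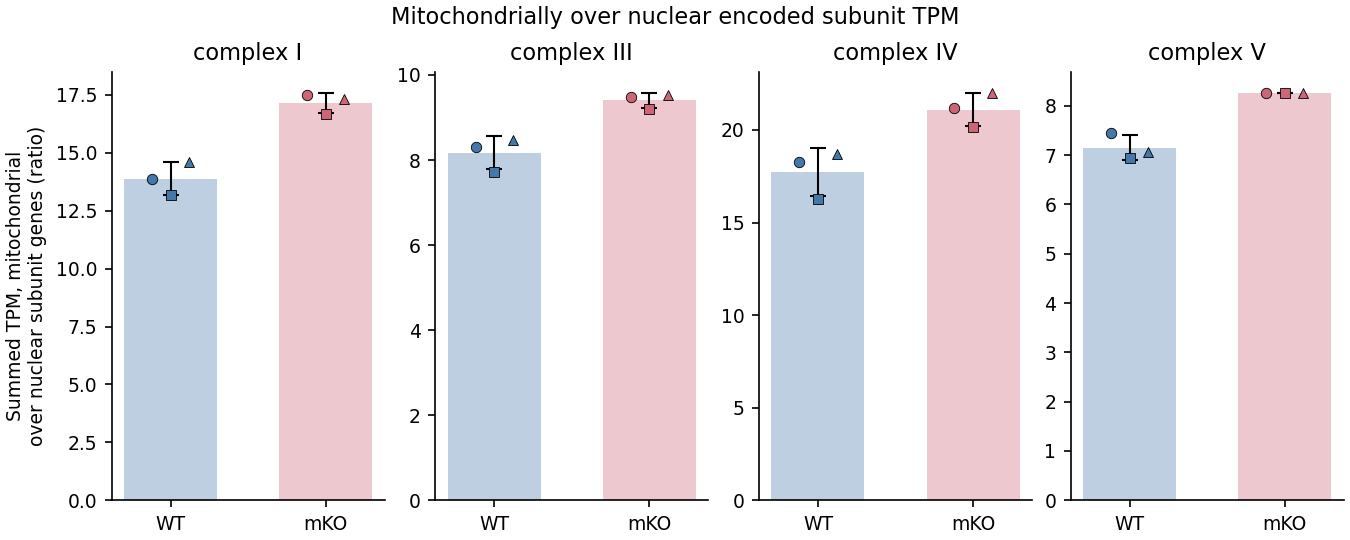
Ratio of the summed TPM of mitochondrially encoded to nuclear encoded subunit genes, by complex. Bars are means, error bars are SDs (n = 3 each), and circles, squares and triangles are replicates 1, 2 and 3. Each mKO library lies above each WT library in all 4 panels, from 13.2 to 14.6 in WT against 16.7 to 17.5 in mKO for complex I.

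The nuclear genes that copy, transcribe and process the mitochondrial genome included none that passed the test. Of a list of 57 such genes, 54 were tested by limma-trend and 0 were called, with 2 at an unadjusted p under 0.05, and limma-voom on reads called 0 of 53. Their median log2 difference was −0.03, against −0.01 over all genes, and 18 were above 0, as were 44.9% of all tested genes. The mitochondrial RNA polymerase Polrmt had 13.03, 13.3 and 12.1 TPM in WT against 12.2, 12.02 and 12.1 TPM in mKO. Its partner Tfam, which packages mitochondrial DNA and starts transcription, was at 20.5, 21.5 and 18.6 TPM in WT and 20.6, 20.4 and 19.04 TPM in mKO. For the elongation factor gene Tefm the mean was 19.3 ± 2.50 TPM in WT against 19.8 ± 1.004 TPM in mKO, and the DNA polymerase gene Polg at 10.2 ± 0.228 and 10.3 ± 0.622 TPM. These levels overlapped between groups.

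Genes of RNA stability and processing gave a similar picture. Lrpprc, which with Slirp binds and stabilises mitochondrial messengers, was at 45.5 ± 2.77 TPM in WT against 43.4 ± 0.952 TPM in mKO. Slirp was at 14.2, 14.0 and 13.6 TPM in WT and 12.2, 13.01 and 11.3 TPM in mKO, lower in all mKO libraries, with a log2 difference of −0.18 (SE 0.07, limma adjusted p = 0.391) that did not pass. The poly(A) polymerase gene Mtpap stood at 8.27 ± 0.473 and 7.90 ± 0.602 TPM, and Grsf1, of the mitochondrial RNA granule, at 122 ± 1.89 and 124 ± 4.54 TPM. The genes of the enzymes that cut transfer RNAs from the precursor, Elac2 at 18.1 ± 0.636 and 18.1 ± 0.417 TPM and Trmt10c at 14.0 ± 1.13 and 13.1 ± 1.71 TPM, also lay within the spread.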

How the data were processed

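The authors deposited 1 table per library that gives TPM for each of 43074 gene names. Per the submitters' processing notes the build is GRCm39. The aligner, the counter, the annotation and the use of strand are not given in the sources used here. Sample titles gave group and replicate. Multiplying TPM by the GENCODE M21 exon length recovered whole reads (tolerance 0.05) for 93.12% of 22734 genes, including all 37 members. The reads give depth and an alternative test. GENCODE M21 is of another build, so no coordinates are printed. mKO was compared with WT by limma-trend on log2(TPM + 1), using limma 3.58.1 under R 4.3.3. A gene entered with a minimum of 1 TPM in 3 libraries, which left 12301. P-values were Benjamini-Hochberg adjusted over all of them, with a threshold of 0.05. Single shares and ratios were compared with exact permutation tests. Sums over members have no test. Limma-trend was tested on simulated reads with log2 changes of 1 and 2 or none. Differences as small as those of the messengers were not covered. Copies were searched with BLAST 2.17.0. The members and gene lists were chosen with earlier results of these data known. Named genes were all members, Stard7, and 10 set genes of the list of mitochondrial DNA and RNA factors. For complex V the tables' older gene names were used, and of 2 numbered entries of Atp5o the expressed one was taken after its values were seen. Alternatives were other filters, pseudocounts (0.1) and scalings, limma-voom on reads, a replicate block, and each library left out.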

Additional observations from a re-analysis of the deposited data

How the results depend on the processing

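No mitochondrially encoded gene was called in the main test, nor in 13 of 14 other settings. Limma-voom on recovered reads called 2, mt-Nd1 and mt-Nd2, and with median-of-ratios library sizes 0, so that call depends on the scaling. The difference in the mitochondrial share was 2.79 points of recovered reads against 4.44 of TPM. That of transfer RNA genes in the mitochondrial total was −0.0000696 against −0.000973 points. Reads are not divided by length. The total of recovered reads also leaves out genes without recovered reads, while the TPM total holds all genes. Scaled to nuclear genes, the log2 differences of all 18 tested members moved up, as did the median of all genes, mt-Nd6 from −0.11 to 0.00332. By over 1.5 times this moved mt-Rnr1 (to 0.16), mt-Rnr2 (0.29), mt-Co1 (0.23), mt-Co2 (0.32), mt-Atp8 (0.14), mt-Atp6 (0.21), mt-Co3 (0.27), mt-Nd3 (0.18), mt-Nd4l (0.22), mt-Nd4 (0.21), mt-Nd5 (0.16) and mt-Cytb (0.20), none past the threshold. Leaving out 1 library, small differences crossed 0: mt-Atp8 ran from −0.0571 to 0.11, mt-Nd5 from −0.000924 to 0.10 and mt-Nd6 from −0.21 to 0.0219 on the log2 scale, and the shares of mt-Rnr2 from −0.0101 to 0.0552 and of mt-Nd4l from −0.192 to 0.00638 points. So did the shares of ribosomal RNA, from −0.0791 to 0.0442, and messenger RNA, from −0.0434 to 0.08 points. Over all genes there were 64 calls, 6 with no filter, 41 with either scaling, and 4 to 94 with 1 library left out; scaled to nuclear genes 20 of 41 were higher in place of 12 of 64. With the replicate number as a block 21 genes were called and 0 members. Deviations of same-numbered libraries correlated at 0.095, 0.0474 and 0.131, each library best with its own number, so the pairing is a hint from the data and not the design. Transfer RNA genes are limited by depth.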
